A study of Drosophila melanogaster with 2 samples.

Results

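The 93 genes for the proteins of the cytosolic ribosome of Drosophila melanogaster were examined in chromatin immunoprecipitation and sequencing (ChIP-seq) of Glass, the zinc finger transcription factor of the gene gl that photoreceptors need in order to form. The genes were all protein-coding genes whose symbol begins with RpL or RpS and a number, or with RpLP, plus sta, which encodes ribosomal protein SA. There were 54 genes of the large subunit and 39 of the small subunit, among 13945 protein-coding genes on the major chromosome arms. Whole pupae of a transgenic line were used, in which Glass carried green fluorescent protein at its C terminus. The pupae were 24 hour old, and males and females were pooled. There was 1 group of 2 biological replicates, with no other genotype, treatment or time, and a control alignment was shared by both replicates. All values therefore come from tagged Glass in a whole animal, and the cells in which the binding took place cannot be told apart. The free-text description of both samples names an input control, while the antibody, the assay and the peak files name ChIP of gl, and the samples were read as ChIP.

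A cytosolic ribosome holds 1 copy of nearly every ribosomal protein, so that a growing cell must transcribe these genes strongly and in balance. In Drosophila most of them start transcription at a pyrimidine-rich initiator called TCT, in place of the usual initiator, and the TBP-related factor Trf2 serves this class of promoter. Loss of 1 copy of many of these genes gives the Minute phenotype of slow development and thin bristles.

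Glass summits stood at the transcription start sites (TSSs) of most cytosolic ribosomal protein genes, and close to the start. In the authors' list of reproducible peaks, called the optimal list here, 60 of the 93 genes (64.5%) had a summit in the gene span extended by 1 kb to each side. The background was 23.1% of all protein-coding genes, and 16.0% of those no longer than the longest ribosomal protein gene, which spans 4677 bp. A summit lay within 1 kb of the gene's own TSS in 59 of 93 (63.4%), against 17.0% of all protein-coding genes. Within 100 bp of an own TSS the share was 56 of 93 (60.2%), against 5.04%. The large and the small subunit had similar shares, with 34 of 54 (63.0%) and 25 of 39 (64.1%) having a summit within 1 kb of their own TSS. The heights of these summits were moderate, with a median rank of 2313 among the 4809 optimal peaks.

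The sequence at the start of the genes is shown for 5 genes with strong summits within 100 bp of their own TSS, for 2 duplicated genes with both copies, and for 2 genes with no summit in any list deposited for both replicates together. Each line runs 5′ to 3′ on the strand of the gene, from 60 bases before the TSS to 20 bases after it, read from the RefSeq assembly of the dm6 build. Capitals mark the TCT initiator, searched as CCTTT or TCTTT, where it was found with its C before TTT within 10 bases of a TSS. The first 5 lines are RpS4, RpL7, RpS27, RpL24 and RpL14. The next 4 lines give each first copy after its second copy, for RpS10 and RpS28, and the last 2 lines are RpL21 and RpS30.
RpS4 at chr3L:13041741-13041820, plus strand: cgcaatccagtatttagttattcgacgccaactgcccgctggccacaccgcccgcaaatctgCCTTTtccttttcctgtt
RpL7 at chr2L:10201040-10201119, plus strand: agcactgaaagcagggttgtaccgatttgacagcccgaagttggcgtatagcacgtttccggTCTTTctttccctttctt
RpS27 at chr3R:25247453-25247532, minus strand: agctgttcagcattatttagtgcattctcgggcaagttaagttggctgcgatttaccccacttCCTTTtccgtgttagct
RpL24 at chr2L:13395073-13395152, minus strand: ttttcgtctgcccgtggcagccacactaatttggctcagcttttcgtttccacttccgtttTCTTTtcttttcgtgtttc
RpL14 at chr3L:8600946-8601025, plus strand: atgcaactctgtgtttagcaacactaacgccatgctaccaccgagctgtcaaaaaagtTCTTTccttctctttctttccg
RpS10a at chr3R:27652700-27652779, plus strand: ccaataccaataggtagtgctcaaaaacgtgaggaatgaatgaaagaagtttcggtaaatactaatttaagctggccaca
RpS10b at chrX:19597980-19598059, plus strand: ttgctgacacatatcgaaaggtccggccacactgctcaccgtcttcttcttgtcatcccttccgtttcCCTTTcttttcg
RpS28a at chr3R:30022629-30022708, minus strand: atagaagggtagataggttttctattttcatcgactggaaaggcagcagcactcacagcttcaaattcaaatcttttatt
RpS28b at chrX:9554563-9554642, plus strand: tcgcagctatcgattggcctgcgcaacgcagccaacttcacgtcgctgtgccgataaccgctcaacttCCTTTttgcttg
RpL21 at chr2L:22247814-22247893, minus strand: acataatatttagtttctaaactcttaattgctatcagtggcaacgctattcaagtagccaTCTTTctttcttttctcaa
RpS30 at chr3R:20850537-20850616, plus strand: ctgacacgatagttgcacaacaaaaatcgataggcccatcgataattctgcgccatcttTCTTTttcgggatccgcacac

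The initiator was found in most of the family, and it was also present where no summit was found. A TCT initiator stood within 10 bases of a TSS in 75 of 93 ribosomal protein genes (80.6%), against 810 of the 13852 other protein-coding genes (5.85%). Its C was at the annotated TSS base in 3 of the 75 and within 1 base of it in 5. With a window of 5 bases the count was 56 (60.2%), against 2.93% of other genes. With 25 bases it was 82 (88.2%), against 13.7%. The match is a run of letters near an annotated start, and where transcription starts was not measured. RpL21 and RpS30 carried the initiator within 10 bases and had no optimal summit at their TSS, whereas RpS10a and RpS28a had neither. RpS28a did have a match just outside this window, 12 bases after the TSS and not in capitals above. That of RpS28b was at 9 bases. Among the ribosomal protein genes, 51 of the 75 with the initiator (68.0%) and 8 of the 18 without it (44.4%) had an optimal summit within 1 kb of the own TSS. Among other genes these shares were 24.3% with and 16.2% without it, and within 100 bp of the TSS only 7.65% of the other genes with the initiator had a summit. In the 51 genes with both, the summit lay a median of 6 bp downstream of the C of the initiator, and 38 of the 51 summits were within 50 bp of it.

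The summits of ribosomal protein genes lay at the start itself. Distances run from the nearest of a gene's annotated TSSs. The strongest own-TSS summit of the 59 genes lay a median of 9 bp downstream of the TSS, with quartiles from 8 bp upstream to 30.5 bp downstream. Of these summits 34 were downstream, 23 upstream and 2 at the annotated base. In 45 of 59 genes (76.3%) it was within 50 bp of the TSS and in 54 (91.5%) within 100 bp. Of the 2316 other genes with a summit within 1 kb of their TSS, 10.2% had it within 50 bp and 23.7% within 100 bp, and their median position was 126 bp upstream. The median absolute distance was 24 bp for ribosomal protein genes and 197 bp for the others. Measured from the most upstream annotated TSS alone, the ribosomal protein genes had a median absolute distance of 54 bp. By annotation, 35 of the 59 summits fell in the 5′ UTR, 18 upstream of the gene and 6 in an intron, and the nearest TSS of any protein-coding gene was the gene's own in 57 of 59. The same position was found in each replicate list, with a median of 5 bp downstream in both replicate 1 and replicate 2. Genes that stand close together can share a summit, so that the genes are not replicates of each other, and no p-value was computed.

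**Figure D1:**
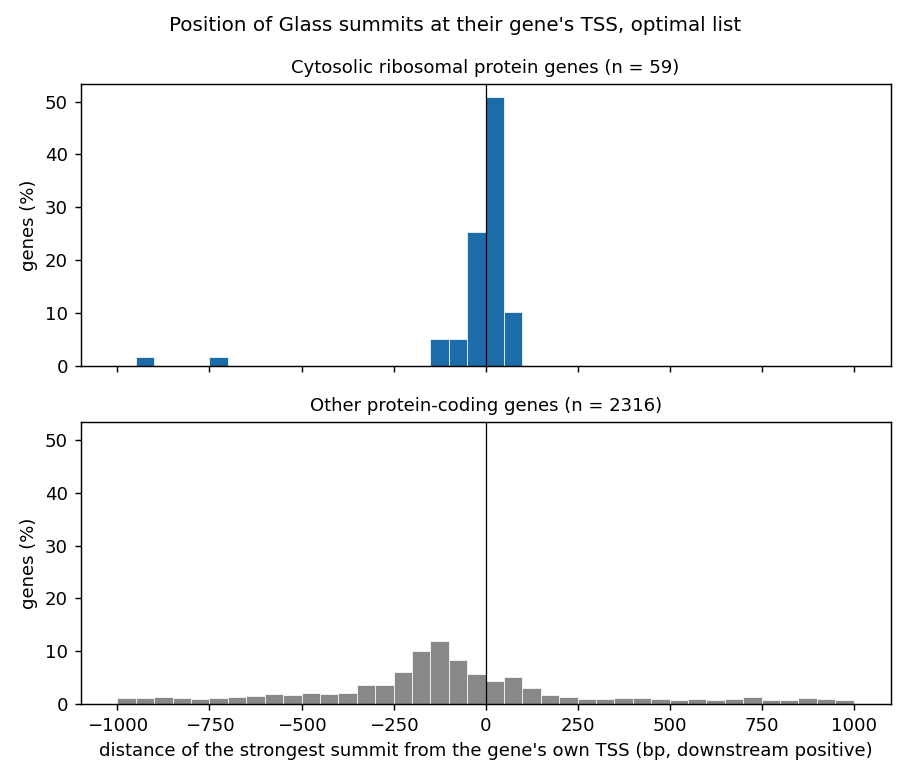
Signed distance in bp of the strongest optimal summit within 1 kb of each gene's own TSS, as the percentage of genes per 50 bp, for 59 cytosolic ribosomal protein genes (top) and 2316 other protein-coding genes (bottom). The bin from 0 to 50 bp downstream holds 50.8% of the ribosomal protein genes and 4.45% of the others, whose fullest bin lies 150 to 100 bp upstream with 11.9%.

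Peak heights were the authors' signal values, which rank peaks within a list and are not comparable between lists. The depth of sequencing is unknown, and no interval on a single value could be given. The own-TSS summits of the 59 genes ran from 128.3 to 599.2, with a median of 206.0, against a median of 212.0 for the other genes with an own-TSS summit. The large subunit had a median of 208.9 and the small subunit one of 196.4. Of the 59 summits 7 ranked among the first 1000 optimal peaks, and 32 among the stronger 2404. The share of other genes within these limits was not counted. Their own-TSS summits had a median rank of 2204, near the 2313 of the ribosomal protein genes.

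**Figure D2:**
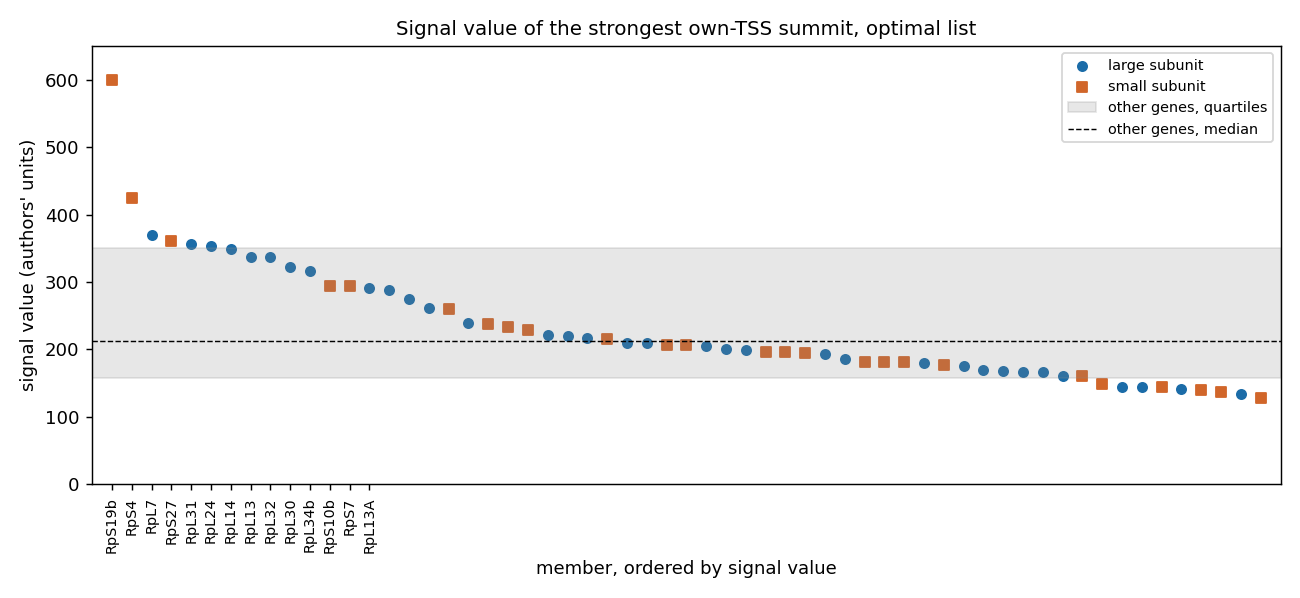
Signal value (authors' units, linear axis) of the strongest optimal summit within 1 kb of the own TSS for each of 59 ribosomal protein genes, in falling order, with the large and small subunit marked and the first 14 named. The grey band and dashed line are the quartiles and median, 158.3 to 350.8 and 212.0, of the other genes, and RpS19b, RpS4, RpL7, RpS27, RpL31 and RpL24 lie above the upper quartile.

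RpS4, a protein of the small subunit body, had the highest summit that belongs to the start of a ribosomal protein gene. Its peak at chr3L:13041688-13041955 had a signal value of 424.8 and optimal rank 656, with the summit 25 bp downstream of the TSS in the 5′ UTR. The summit had a signal value of 203.6 and rank 1026 in replicate 1, and 216.6 and rank 483 in replicate 2. Both replicates therefore placed it among the stronger peaks. RpL7, a protein of the large subunit, followed with 369.6 at chr2L:10200955-10201134, 37 bp upstream of the TSS. It ranked 1432 in replicate 1 and 570 in replicate 2. RpS27, a zinc-binding protein of the small subunit, had 361.2 at chr3R:25247412-25247611, 7 bp upstream, with ranks 1351 and 604. Measured from the C of the initiator printed above, the summit lay 22 bp downstream in RpS4, 40 bp upstream in RpL7 and 53 bp upstream in RpS27. All 3 genes have a pair of annotated TSSs, and the distance to the start is that to the nearer of them.

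The other strong own-TSS summits were mostly of the large subunit. RpL24, which forms part of a bridge to the small subunit, had 353.4 with the summit 15 bp downstream, at ranks 1335 in replicate 1 and 691 in replicate 2. RpL14 had 349.2, 7 bp upstream, at ranks 1268 and 796. RpL30 had 322.4, 1 bp upstream, at ranks 1411 and 866. RpL32, also known as rp49 and widely used as a reference gene in fly expression work, had 336.4, 112 bp upstream, at ranks 1482 and 869. RpL13 had 337.1, 4 bp upstream, at ranks 1215 and 939. This peak also counted for Dref, whose TSS lies 80 bp from the summit on the other side and whose protein binds the DNA replication-related element. RpL13A had 290.9, 11 bp upstream, at ranks 3093 in replicate 1 and 600 in replicate 2. In the small subunit RpS10b had 294.7, 9 bp downstream, at ranks 1675 and 1115, and RpS7 had 294.6, 62 bp downstream, at ranks 1631 and 1134.

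Taken by position in the ribosome, proteins of the exit tunnel, where the nascent chain leaves, had own-TSS summits in 8 of 9 genes, with RpL22 the exception. These and the counts of the other positions stand beside 63.4% for the whole family and 17.0% for all protein-coding genes, and rest on few genes each. For RpL35, among the 8, the strongest of them lies near the start of Rab18. RpL31, at the tunnel exit, had 356.3 directly at its TSS, with rank 1299 in replicate 1 and 793 in replicate 2. Of the stalk proteins, which recruit elongation factors, RpLP0 and RpLP1 had summits of 274.8 and 208.9, lying 16 bp upstream and 28 bp downstream of their starts. RpLP0 ranked 1112 in replicate 1 and 2851 in replicate 2, and RpLP1 ranked 2835 and 2135. RpLP2 had no optimal summit, and its pooled entry ranked 6605.

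Near the peptidyl transferase centre RpL3 had a summit of 216.4, 22 bp downstream, at ranks 2770 in replicate 1 and 1411 in replicate 2, and RpL8 had one too, while RpL10, whose protein joins the large subunit late in its assembly, had none. Of the proteins that bind the 5S RNA, RpL11 had 198.5, 31 bp downstream, at ranks 5043 and 1233, and RpL5 had only a pooled entry of rank 8250. RpL41, the smallest ribosomal protein, had 261.4, 16 bp upstream, at ranks 3603 and 768. Both decoding-centre genes, RpS15 and RpS23, had an own-TSS summit, as had 2 of 3 genes of the mRNA entry and 4 of 5 of the mRNA exit. The gene sta had 181.5, 4 bp downstream, at ranks 4125 and 1947. RpS6, the substrate of S6 kinase, had no optimal summit, with a pooled entry of rank 5948. Of the genes whose proteins are made as fusions to ubiquitin or a ubiquitin-like protein, RpS27A had 207.0, 8 bp upstream, at ranks 3035 and 1822. RpL40 had only a pooled entry, of rank 7048, and RpS30 had none.

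Some summits assigned to the family lay nearer to the start of another gene. RpS19b had the highest value within 1 kb of an own TSS, 599.2 at rank 324, but the summit was 908 bp upstream, in an intron of CG5854 and 526 bp from the TSS of that gene. It ranked 459 in replicate 1 and 254 in replicate 2. The extended span of RpL31 held a summit of 760.3 at rank 176, which lay in an intron of clos and 121 bp from the TSS of CG1827. The strongest own-TSS summit of RpL35, 209.0, was 130 bp from the TSS of Rab18, and a weaker one of 164.1 stood 52 bp from the start of RpL35 itself. RpS13 was the only gene with a summit in its extended span and none within 1 kb of its TSS, with 133.1 at 163 bp from the TSS of CG7627. The strongest summit of RpS9, 151.0, was in an intron of CG3408 and 339 bp from its TSS. A second of 148.5 stood 84 bp from the start of RpS9. RpL12 shared with RpL39 a summit of 201.4 that lies 48 bp from the start of RpL39, and had its own of 185.3 at 18 bp. The strongest summit in the extended span of RpS14a was likewise that of its neighbour RpS14b. In all, 13 genes had 2 optimal summits in the extended span and none had more. The 73 summits counted were 71 distinct ones.

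Both replicates found the family, and replicate 2 ranked its summits higher. In the 4809 strongest peaks of each replicate list, 56 of 93 genes (60.2%) in replicate 1 and 61 (65.6%) in replicate 2 had a summit within 1 kb of the own TSS, against backgrounds of 16.7% and 17.1%. The genes found in both numbered 51. Those found in replicate 1 alone numbered 5 and included RpL4, RpL23, RpL35A and RpS14a. Those found in replicate 2 alone were RpL7A, RpL7-like, RpL11, RpL17, RpLP0-like, RpLP2, RpS3, RpS3A, RpS6 and RpS21. Among the other 27 genes neither list had one. The shares of all protein-coding genes found in both lists, or in 1 alone, were not counted.

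Every one of the 59 optimal own-TSS summits had an entry within 200 bp in both full replicate lists of 30000 entries. The summits of the replicates were a median of 22 bp apart, within 50 bp in 49 genes and 142 bp apart at most. Over all optimal peaks seen in both replicates the median was 27 bp, and 28 bp for those within 1 kb of a TSS. The family is thus near the general value. The summit ranked better in replicate 2 in 42 of 59 genes (71.2%), with a median rank of 2911 in replicate 1 and 2135 in replicate 2. Over the whole optimal list, 48.7% of the 4680 peaks seen in both replicates ranked better in replicate 2, and of the 2187 within 1 kb of a TSS, 53.1%. Spearman's rho between the ranks of the 59 summits was 0.504, across genes that share both libraries. The rank number in replicate 1 was more than 2 times that in replicate 2 in 14 genes, among them RpS4, RpL7, RpS27, RpL13A, RpL41, RpL11, RpL17, RpS3A, RpL7A and sta. For RpL35 the ranks of 21765 and 1418 belong to the summit near Rab18. The entry taken was the nearest one, and a stronger replicate 1 entry of rank 3597 also lay within 200 bp of this summit. For RpLP0 and RpL34a the rank number in replicate 2 was more than 2 times that in replicate 1. The share of all optimal peaks past these limits was not counted, so that such differences cannot be called particular to the family.

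The genes found by 1 replicate mostly had an entry farther down the full list of the other. RpL17, a tunnel protein, had ranks 6297 and 1369 in replicates 1 and 2, and RpL7A had 9249 and 2675. RpS3A, the only member on chromosome 4, had 5019 and 1523, and RpS3, which also acts in DNA repair, had 5625 and 4400. RpL35A ranked 3667 in replicate 1 and 5365 in replicate 2, and RpL4 ranked 4367 and 4871. RpS14a ranked 4650 and 6639, and RpL11 was given above. The others named had no optimal own-TSS summit except RpL11 and RpS14a, and their best entries near the TSS ranked 7480 and 3197 for RpLP2, 8406 and 4497 for RpS6, 11441 and 4668 for RpLP0-like, and 4272 and 8193 for RpL23. For RpS21 the best entries of the replicates were different peaks, of rank 10266 at position 16 bp from the TSS in replicate 1 and of rank 4246 at -511 bp in replicate 2, with negative positions upstream. For RpL7-like they lay at -220 bp with rank 5848 and at -362 bp with rank 3293.

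**Figure D3:**
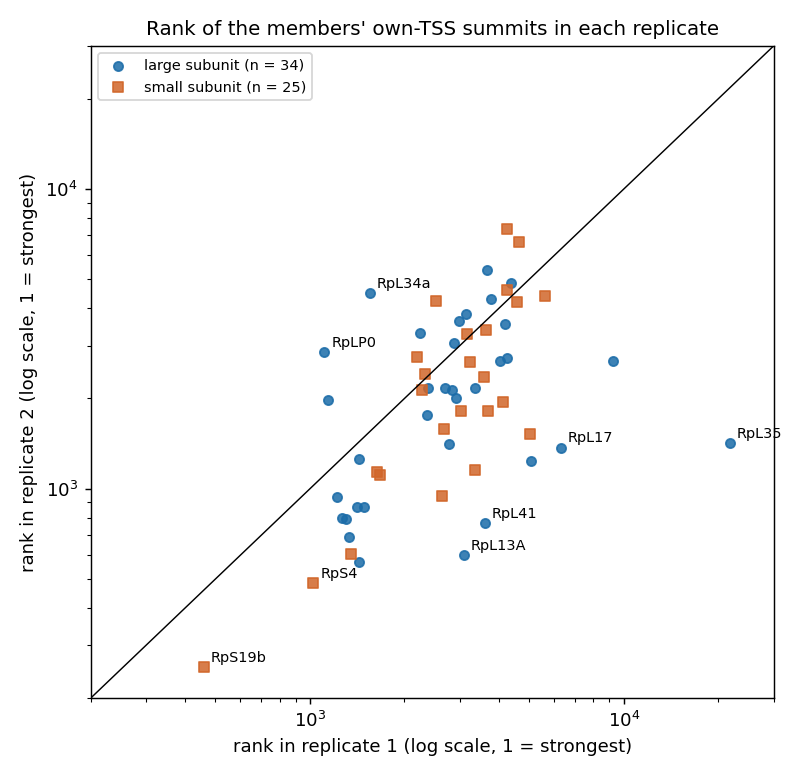
Rank of each of the 59 optimal own-TSS summits in the full list of replicate 1 (x axis) and replicate 2 (y axis), both on log scales with 1 as the strongest, by subunit. Points under the diagonal rank better in replicate 2, as 42 of 59 do, and RpLP0 and RpL34a stand farthest on the other side.

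Duplicated genes differed between their copies. The division into first and second copies (the first being the one expressed in most tissues) follows general knowledge and was not measured here. Of 9 second copies 1 (11.1%) had an optimal summit within 1 kb of its TSS, against 5 of 8 first copies (62.5%) and 17.0% of all protein-coding genes. That 1 was RpS19b with the summit in CG5854, so that no second copy had one within 100 bp, where the share of all protein-coding genes was 5.04%. The counts of the second copies are thus near the background. RpS10a and RpS15Ab had pooled entries of ranks 20752 and 29657, against 1310 and 2483 for RpS10b and RpS15Aa. RpS28a and RpS28-like had pooled entries of ranks 9824 and 8908, at 561 bp and 599 bp from the TSS, against rank 1907 for RpS28b at 9 bp. RpS19a had an optimal summit of rank 2822, 37 bp downstream. The second copies RpL10Aa, RpL22-like and RpL37-2 had no pooled entry within 1 kb of the TSS, and their first copies RpL10Ab, RpL22 and RpL37-1 had entries of ranks 5111, 7332 and 8174, outside the optimal list.

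RpL34a and RpL34b, and RpS14a and RpS14b, do not divide in this way, and all 4 had optimal own-TSS summits. RpL34b had 316.0 at 108 bp upstream and RpL34a 221.3 at 57 bp upstream. RpL34a ranked 1552 in replicate 1 and 4489 in replicate 2, whereas RpL34b ranked 1437 and 1256. RpS14b and RpS14a stand in tandem, with 177.7 at 23 bp and 128.3 at 9 bp downstream. RpL7-like, RpL24-like and RpLP0-like, which are related to ribosome assembly factors, had no optimal summit at their TSS. Without them and the second copies, 58 of 81 genes (71.6%) had one, with 34 of 48 of the large and 24 of 33 of the small subunit.

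**Figure D4:**
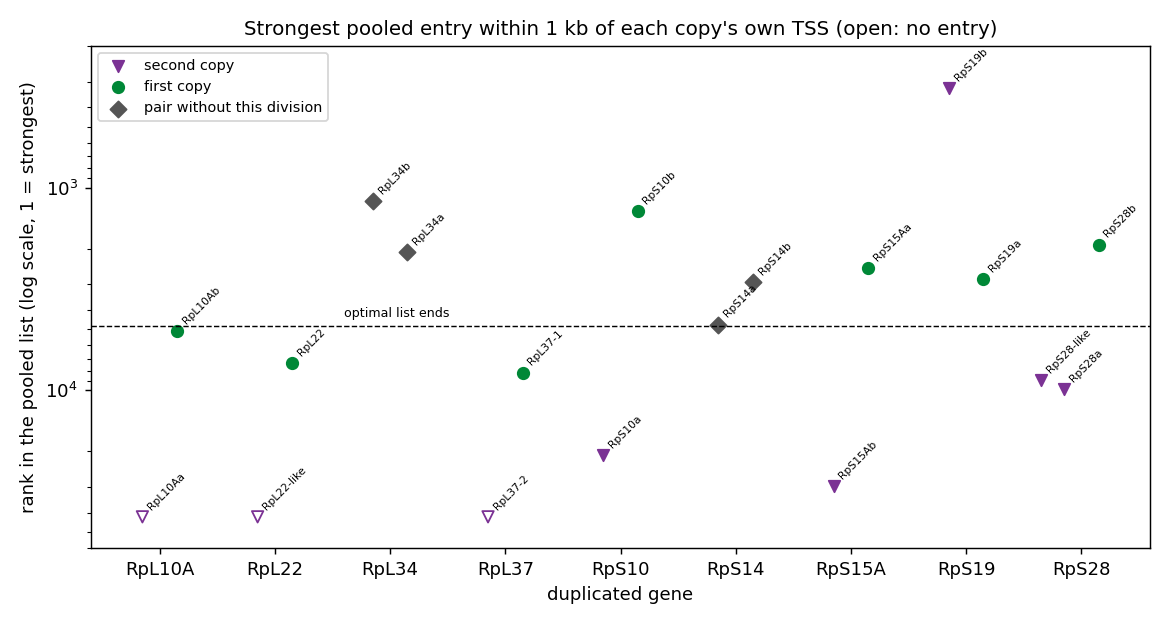
Rank in the pooled list (log scale, strongest at the top) of the strongest entry within 1 kb of the own TSS for each copy of 9 duplicated genes, with open symbols for copies that had no entry. The dashed line is the end of the optimal list at rank 4809, and RpS19b is the only second copy above it.

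Of the 34 genes with no optimal summit within 1 kb of their TSS, 27 had an entry there in the pooled list, which also holds peaks below the authors' threshold. With these, 86 of 93 genes (92.5%) had a pooled entry within 1 kb of the TSS, against a background of 55.1% of all protein-coding genes. The 27 entries ranked from 4899 to 29657, with a median of 7332. Genes without an optimal own-TSS summit and not yet given included RpL6, RpL15, RpL27A, RpL29, RpL38, RpS2, RpS24 and RpS26. RpL15, RpL27A, RpS2, RpS24 and RpS26 had pooled entries of ranks 6231, 6773, 5922, 11230 and 7977, all within 120 bp of the TSS. RpL29 had an entry of rank 10685, and RpL10 one of rank 6098. RpL6 had the weakest entry among the single-copy genes, of rank 23088. No pooled entry was listed for RpL21, RpL38, RpS30, RpL24-like, RpL10Aa, RpL22-like and RpL37-2.

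A neighbouring start went with more summits, in this family and in other genes. Of the 59 ribosomal protein genes with the TSS of another protein-coding gene within 1 kb, 44 (74.6%) had an own-TSS summit, against 15 of 34 (44.1%) without such a neighbour. Of other genes the shares were 22.4% with and 12.4% without a neighbour. Within 100 bp of the own TSS they were 69.5% and 44.1% for ribosomal protein genes, and 5.94% and 3.72% for other genes. The introns of 29 of the genes hold small nucleolar RNAs, which guide the modification of ribosomal RNA. Of these hosts 21 (72.4%) had an own-TSS summit, against 37 of 52 (71.2%) of the genes that host none, second copies and -like relatives left out. By chromosome the counts were 9 of 19 on 2L, 11 of 21 on 2R, 11 of 14 on 3L, 15 of 23 on 3R and 12 of 15 on X. Over all chromosomes the share of all protein-coding genes was 17.0%. That share was not counted by chromosome, so that the chromosomes cannot be ranked for this family.

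Short motifs were searched on both strands from 250 bases before to 50 after the most upstream annotated TSS of each gene. Summits were counted at any annotated TSS, so that motif and summit can belong to different starts of a gene. The DNA replication-related element TATCGATA was present in 30.1% of the ribosomal protein genes, against 9.22% of other genes, and GGTCACACT, the element of the factor M1BP, in 10.8% against 6.01%. An own-TSS summit was found in 18 of the 28 ribosomal protein genes with TATCGATA (64.3%) and in 41 of the 65 without it (63.1%). With GGTCACACT it was found in 9 of 10, and without it in 50 of 83 (60.2%). With the E-box of bHLH factors it was found in 4 of 8, and without it in 55 of 85 (64.7%). Among other genes the shares were 20.1% with and 16.4% without the DNA replication-related element, 22.6% with and 16.3% without the M1BP element, and 16.3% with and 16.7% without the E-box. GAGAGA, a run bound by GAGA factor, was present in 4.3% of ribosomal protein promoters, against 12.4% of the others, the E-box CACGTG in 8.6% against 4.17%, AGAGAG, which overlaps GAGAGA, in 8.6% against 13.7%, and TACTAA in 17.2% against 16.1%.

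Within 50 bp of the summit, GAGAGA was found at 0 of the 59 ribosomal protein summits and at 7.98% of the 4750 other optimal summits. CAAAGTCC was at 0 of 59 and at 1.98% of the others. TATCGATA stood at 3 of 59 (5.08%), against 0.358%, GGTCACACT at 3 of 59, against 0.189%, CACGTG at 3 of 59, against 0.863%, AGAGAG at 4 of 59 (6.78%), against 9.66%, and TACTAA at 3 of 59, against 5.45%. The 59 summits all lay within 1 kb of a TSS, whereas the 4750 others were taken at any distance from a TSS. Of the 4680 optimal peaks seen in both replicates, 2187 lay within 1 kb of a TSS. The shares thus compare sets that differ in their distance to starts. A match is a run of letters and not a binding site.

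Other genes of translation were given beside the family, from lists of 73 mitochondrial ribosomal protein genes, 44 initiation factor genes, 8 genes of elongation and scaffold proteins and 14 genes of ribosome biogenesis. The mitochondrial ribosomal protein genes had own-TSS summits in 14 (19.2%), and in 2 (2.74%) within 100 bp, near the background of all genes. The initiation factor genes had them in 11, and in 5 (11.4%) within 100 bp. The elongation and scaffold genes had a summit within 100 bp in 3 of 8 (37.5%), against 5.04% of all protein-coding genes. Within 1 kb 4 of these 8 genes had one, against 17.0%. These were eEF1gamma with 432.0 at 6 bp upstream, eEF1alpha1 with 194.6 at 104 bp downstream, Rack1 with 184.4 at 48 bp and eEF2 with 173.1 at 45 bp. The signal of eEF1gamma was above that of RpS4. In ribosome biogenesis 4 of 14 had a summit, among them Ns2 with 723.1 at 167 bp upstream, and none was within 100 bp.

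Regulators known to act on ribosomal protein genes or on growth made a list of 11 genes. Of these, 8 had a summit within 1 kb of their own TSS in the optimal list, 10 in replicate 1 and 8 in replicate 2. The shares of all protein-coding genes were 17.0%, 16.7% and 17.1%. Within 100 bp of the own TSS 5 of the 11 (45.5%) had an optimal summit, against 5.04% of all protein-coding genes. Trf2, the factor of TCT promoters, had 509.4 at 16 bp upstream of a TSS. The others of the 8 were Trl with 372.0, Irbp18 with 360.6, Mnt with 339.5 and Dref with the peak shared with RpL13. S6k with 180.5, Myc with 139.3 and Max with 132.7 completed them. M1BP, Xrp1 and mTor had none.

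**Figure D5:**
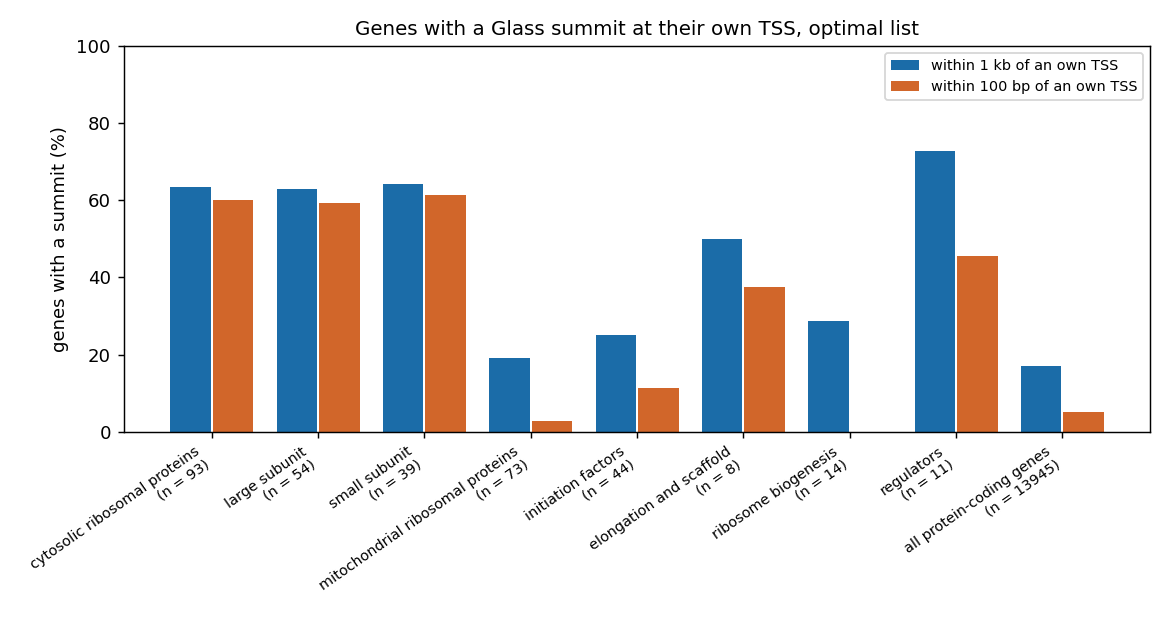
Percentage of genes with an optimal summit within 1 kb (left bar) and within 100 bp (right bar) of an own TSS, for the cytosolic ribosomal protein genes, their subunits, other lists of translation genes and regulators, and all protein-coding genes. The cytosolic ribosomal protein genes stand at 63.4% and 60.2%, and all protein-coding genes at 17.0% and 5.04%.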

How the data were processed

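Peak lists of Glass ChIP-seq were used as deposited for dm6: 30000 entries for each of 2 replicates and for the pooled replicates, and the 4809 peaks of the optimal list, thresholded by irreproducible discovery rate per the file names and the deposited text. Peak height is the authors' signal value. Significance is the authors' deposited −log10 q value, 4.10 for every optimal peak. Aligner, peak caller and depth are not given in the sources used here.

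Summits, genes and TSSs (Ensembl release 115, BDGP6.54, the dm6 assembly) were joined in Python 3.11.15 with numpy 2.4.6 and pandas 2.3.3. A gene had an own-TSS summit when a summit lay within 1000 bp of any of its annotated TSSs, and the strongest was used. Ranks follow signal. Replicate counts used the 4809 strongest entries, and entries were matched to the nearest within 200 bp. The code was tested on simulated data. Counts are descriptions without tests, since there is 1 group. Genes and lists were chosen with earlier results of these data known. Some genes are counted but not reported by name here. Other genes were named where they were among the 15 strongest own-TSS summits or the 5 strongest in a replicate, were found in 1 replicate alone, had their strongest summit beyond 1 kb, or were duplicated, stalk, fusion or well-known genes. Alternatives varied the list, window, extension and TSS.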

Additional observations from a re-analysis of the deposited data

Results flagged for a closer look

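Outside the optimal list, 8 genes with no optimal summit at their own TSS had a pooled entry there whose −log10 q value, 4.10, was the top one among the pooled entries: RpL10, RpL10Ab, RpL15, RpL23, RpL7-like, RpLP0-like, RpS2 and RpS6. They were flagged because a signal appeared in data that the main counts do not use. Their signal values ran from 107.0 for RpL15 to 125.5 for RpL23, all below the lowest optimal value of 127.0. The −log10 q value of 4.10 was shared by 6290 of the 30000 pooled entries, so that it does not single out these genes. The share of all protein-coding genes with such an entry outside the optimal list was not counted.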

How the results depend on the processing

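No paired analysis was possible because there is only 1 group, and so no 2 groups share replicate numbers. Of 42 alternatives to 9 results, 30 kept the value within the replicate spread or the count within 1.5 times, and 12 did not. With the strongest 2404 optimal peaks alone, the genes with a summit numbered 33 in the extended span (21 large and 12 small subunit), 32 within 1 kb of the own TSS and 27 within 100 bp, out of fewer peaks by construction. The share of all protein-coding genes with that shorter list was not counted. The median distance of 24 bp was 54 bp from the most upstream TSS alone, and 29 to 31.5 bp in single replicates. The median signal value of 205.9 was 99.9 to 105.1 in single replicates, where the scale differs by list. Of the 9 second copies, 6 (66.7%) had a summit with every pooled entry, near the 55.1% of all protein-coding genes. Within 100 bp of the TSS in the optimal list 0 had one, against 5.04% of all protein-coding genes. With a single replicate the genes with an own-TSS summit numbered 56 to 61 of 93. The windows, the extension and the most upstream TSS gave counts of own-TSS or extended-span summits within 1.5 times. Depth is unknown, so that a gene without a peak was not detected rather than unbound. The distances, the 100 bp window and the second copies were added as alternatives after seeing the data.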
